A study of Ovis aries with 18 samples.

Results

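NFKBIZ and NFKBIA are 2 genes of the IkB family, and their transcripts were followed in sheep whole blood that had been mixed with saline or with an agonist of the receptor TLR4. The members were taken by gene, as every probe named for NFKBIZ or NFKBIA. The NFKBIA probe was named by matching its transcript accession in RefSeq. The NFKBIZ accession found no match there, and that probe was named by its probe ID in the study's own probe list. Its identity therefore rests on that label. NFKBIZ and NFKBIA are 2 of the 949 genes named on the array, and each was read by 1 of its 15008 probes. Only 1272 probes had a gene name, so further probes of either gene may be among the unnamed ones. The NFKBIZ probe was A_70_P018791 and the NFKBIA probe was A_70_P068111.

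Blood came from 6 healthy adult female sheep of about 3 years, was kept from clotting with lithium heparin, and was divided so that each animal gave 1 sample to each of 3 treatments. The control received phosphate-buffered saline (PBS). The second sample received lipopolysaccharide (LPS, the lipid-anchored sugar polymer of the outer membrane of Gram-negative bacteria), in an amount given in the labels as 1 µg. The third received monophosphoryl lipid A (MPLA, a detoxified derivative of the lipid part of LPS that is used as a vaccine adjuvant), in an amount given as 10 µg. All samples were held for 90 minutes before the RNA was stabilised, so every value is from a single early time in blood outside the animal. Since the amounts differed, the kind of agonist and its amount cannot be told apart where MPLA is set against LPS.

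NF-kappaB is a family of transcription factors that rest in the cytoplasm bound to IkB proteins. When TLR4 is engaged, a kinase complex marks IkB for destruction, and the freed factor enters the nucleus and switches on cytokine, chemokine and survival genes. NFKBIA encodes IkB-alpha, the classical inhibitor, whose gene is itself a target of NF-kappaB, so that new inhibitor brings the signal to an end. NFKBIZ encodes IkB-zeta, an atypical nuclear member that is made after stimulation and that is needed for a later set of targets, IL6 among them.

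Every level below is the log2 of the background-subtracted spot signal minus the log2 of the 75th percentile of that array, so a level of 0 is as bright as that percentile and a difference of 1 is a doubling. A probe was taken as measured on an array where the scanner software marked it as well above background. Arrays differed in brightness, with 75th percentiles from 24.8 to 124.2 signal units and 23.9% to 45.1% of probes above background. The 18 arrays lay on 3 slides, and each animal's arrays were on the same slide apart from the MPLA array of animal 170. Whole blood holds many cell types, and a higher transcript level in more cells cannot be told apart from more transcript per cell. Of the blood cell markers looked up, CD14 and LYZ of monocytes, CD3D and CD3E of T cells and HBB of red cells were measured on 18 of 18 arrays, and 0 of these 5 were called between either agonist and PBS, where 0.898% (LPS) and 0.995% (MPLA) of all tested probes were called, so that 0 of 5 is no result about these markers. Their mean changes ran from -0.32 to 0.08 with LPS and from -0.48 to 0.04 with MPLA. CD247, a further T cell marker, was above background on 2 of 18 arrays. The housekeeping gene GAPDH changed by -0.11 and 0.22, while the probe for ACTB was above background on 0 of 18 arrays. No probe of the 8 neutrophil, 5 B cell or 4 platelet markers was named.

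NFKBIZ rose with both agonists in every animal, 6.11-fold with LPS and 3.45-fold with MPLA. Its probe was above background on 18 of 18 arrays. Under PBS its level ran from 0.39 in animal 71Y through a median of 1.44 to 2.11 in animal 65Y. Under LPS it ran from 3.28 in animal 170 through a median of 4.07 to 4.56 in animal 80. Under MPLA it ran from 2.38 in animal 51Y through a median of 3.27 to 4.29 in animal 20. The highest PBS sample therefore lay below the lowest sample of either agonist, whereas the LPS and MPLA samples overlapped. In signal units the probe read 55.1 to 290.4 under PBS, 432.2 to 2257 under LPS and 335.5 to 881.2 under MPLA. Among all probes of an array it stood above 77.7% to 86.1% of them under PBS, and above 92.2% to 95.3% under LPS and 88.5% to 94.3% under MPLA.

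**Figure D1:**
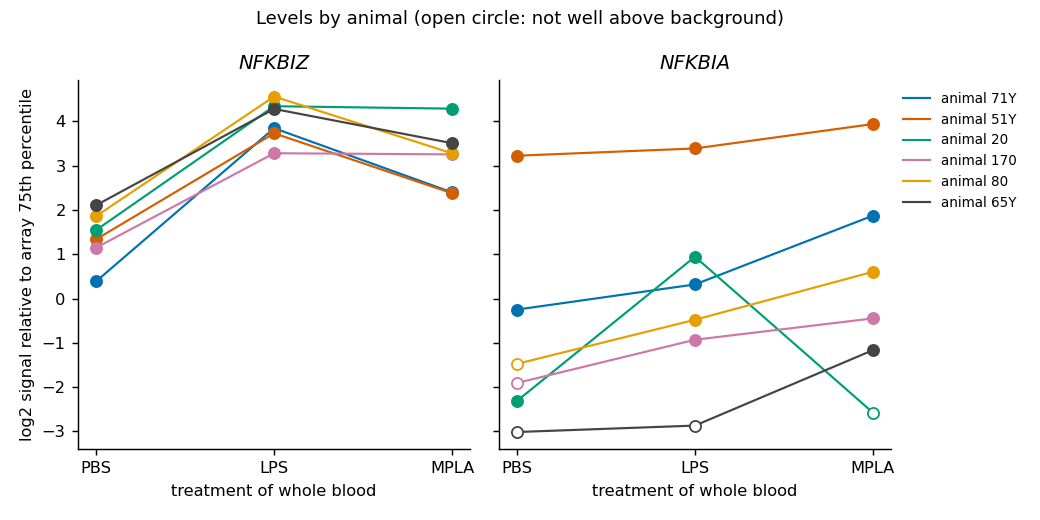
Level of NFKBIZ (left) and NFKBIA (right) in each of the 6 animals under PBS, LPS and MPLA, as log2 signal relative to the 75th percentile of the array, with lines joining the 3 samples of an animal and open circles for probes not well above background. NFKBIZ samples under PBS, at 0.39 to 2.11, lie below all LPS and MPLA samples, while NFKBIA of animal 51Y, at 3.23 to 3.94, lies above that of the other animals under every treatment.

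With LPS the NFKBIZ level rose by 3.46 in animal 71Y, 2.39 in 51Y, 2.80 in 20, 2.13 in 170, 2.70 in 80 and 2.17 in 65Y. Animal 71Y, with the lowest PBS level, had the highest rise, but animal 170, with the next lowest at 1.15, had the lowest rise. The mean rise was 2.61 ± 0.50 (SD, n = 6), with a 95% confidence interval of 2.16 to 3.06, which as a ratio is 4.48- to 8.32-fold. In limma, with the animal as a block, the adjusted p was 0.000135, and the probe ranked 7 by p and 16 by size of change among 4122 tested probes. Over all tested probes limma called 37 (33 higher and 4 lower), a background of 0.898%. An exact sign-flip test on the 6 within-animal changes, two-sided, gave p = 0.031, the smallest it can give, as 1 of 6 such tests made on the 2 genes. Within slides, each with 2 animals, the mean rise was 2.80, 2.44 and 2.60. With another background correction, normexp, the mean rise was 1.75 and was not called (limma adjusted p = 0.222).

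With MPLA the NFKBIZ level rose by 2.01 in animal 71Y, 1.04 in 51Y, 2.74 in 20, 2.11 in 170, 1.42 in 80 and 1.40 in 65Y. The mean rise was 1.79 ± 0.62 (SD, n = 6), with a 95% confidence interval of 1.28 to 2.29, or 2.43- to 4.90-fold. Its adjusted p in limma was 0.00285, at rank 22 by p and 23 by size, where 41 of the 4122 probes were called (31 higher and 10 lower), a background of 0.995%. The exact sign-flip test again gave its smallest p, 0.031. Within slides the mean rise was 2.01 in the 1 animal of the first slide whose arrays shared it, and 1.41 and 1.89 over 2 animals each on the others.

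Set directly against LPS, the NFKBIZ level under MPLA was lower in 6 of 6 animals. The difference was -1.45 in animal 71Y, -1.35 in 51Y, -0.06 in 20, -0.03 in 170, -1.28 in 80 and -0.77 in 65Y. In animals 20 and 170 the levels with both agonists were nearly equal, and in the other 4 the level was 0.77 or more lower under MPLA. Expressed as a share of the rise with LPS, the rise with MPLA was 98.0% and 98.8% in animals 20 and 170 and 43.5% to 64.4% in the others. The mean difference was -0.82 ± 0.65 (SD, n = 6), with a 95% confidence interval of -1.36 to -0.28. The exact sign-flip test gave p = 0.031, but in limma the adjusted p was 0.84, so the difference was not called among all probes. Only 2 of 4122 probes were called here, both lower with MPLA, a background of 0.0485%, and 190 had an unadjusted p under 0.05. Within slides the difference was -1.45 in 1 animal, and -1.03 and -0.70 over 2 animals each. With normexp background correction the mean difference was -0.30.

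**Figure D2:**
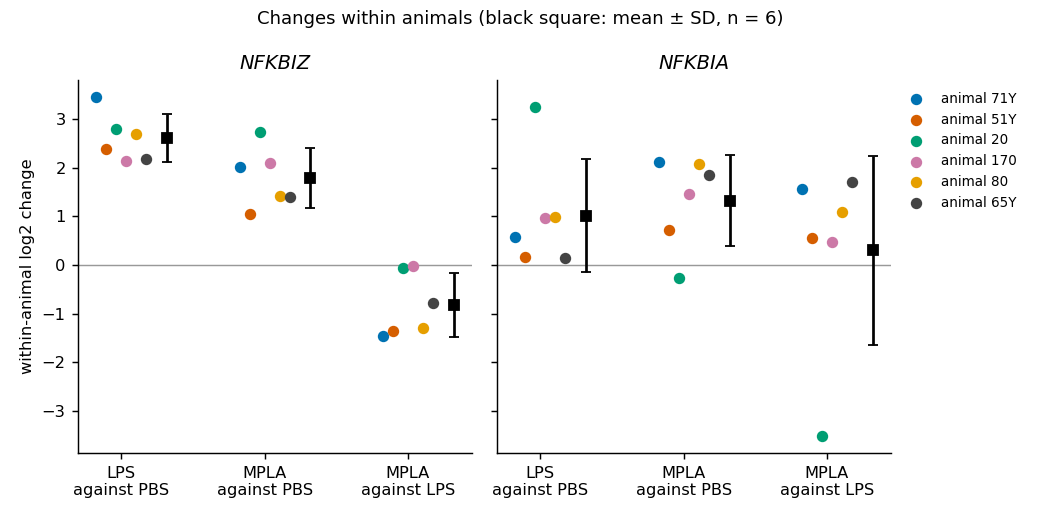
Within-animal log2 change of NFKBIZ (left) and NFKBIA (right) for each agonist against PBS and for MPLA against LPS, with 1 coloured point per animal and a black square with bars for the mean ± SD (n = 6). All NFKBIZ points lie above 0 for both agonists and below 0 for MPLA against LPS, and for NFKBIA animal 20 stands apart at 3.26 with LPS and at -3.52 for MPLA against LPS.

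NFKBIA was near or below background in some animals and bright in others, and differed more between animals than between treatments. It was above background on 3 of 6 PBS arrays, 5 of 6 LPS arrays and 5 of 6 MPLA arrays. Because no treatment had it above background on 6 of 6 arrays, it was tested among the 4992 probes above background on at least 4 of 6 arrays of a treatment. NFKBIA passed that filter only through the LPS and MPLA arrays, so its tests against PBS carry that selection. A value marked below as not above background is a spot reading without a dependable level.

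Under PBS the NFKBIA level was -0.25 in animal 71Y, 3.23 in 51Y and -2.31 in 20, and the values not above background were -1.91 in 170, -1.47 in 80 and -3.01 in 65Y. Under LPS it was 0.32 in 71Y, 3.39 in 51Y, 0.95 in 20, -0.93 in 170 and -0.48 in 80, and -2.87, not above background, in 65Y, whose signal of 3.92 was the lowest on that array. Under MPLA it was 1.87 in 71Y, 3.94 in 51Y, -0.45 in 170, 0.60 in 80 and -1.16 in 65Y, and -2.58, not above background, in 20. Animal 51Y was highest under every treatment, and all 3 treatments overlapped. Over the arrays where it was above background, the NFKBIA level spanned 5.54 under PBS (3 animals), 4.32 under LPS (5 animals) and 5.11 under MPLA (5 animals), against 1.72, 1.28 and 1.91 for NFKBIZ over 6 animals each. When the spread of each probe over the 18 arrays was divided into parts, treatment took 79.3% of the sum of squares of NFKBIZ and animal 14.2%. For NFKBIA treatment took 7.26% and animal 80.2%, and 3.54% and 80.5% when readings under the detection limit were raised to it. The medians over the 4122 tested probes were 5.36% for treatment and 60.1% for animal.

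With LPS the NFKBIA level was 0.57 higher in animal 71Y, 0.16 in 51Y, 3.26 in 20, 0.98 in 170, 1.00 in 80 and 0.15 in 65Y. All 6 differences were positive, but those of 51Y and 65Y were small, and in 3 animals (170, 80 and 65Y) at least 1 of the arrays was not above background. The mean was 1.02 ± 1.16 (SD, n = 6), with a 95% confidence interval of 0.15 to 1.89. It was not called in limma, with an adjusted p of 1.00 and an unadjusted p of 0.0264, where 32 of 4992 probes were called, a background of 0.641%. The exact sign-flip test gave p = 0.031. It drew on readings not above background in 170, 80 and 65Y, so it cannot show a rise in every animal. With readings under the detection limit of an array raised to that limit, the mean was 0.66. Without that raising, the mean within slides was 0.77, 0.57 and 1.71, and the last of these holds animal 20. Without animal 20 the mean was 0.57.

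With MPLA the NFKBIA level was 2.12 higher in animal 71Y, 0.72 in 51Y, 1.46 in 170, 2.08 in 80 and 1.85 in 65Y, and it was -0.26 in animal 20. Both arrays were above background in 71Y and 51Y only. The mean was 1.33 ± 0.94 (SD, n = 6), with a 95% confidence interval of 0.60 to 2.05, and was not called in limma (adjusted p = 0.209). Here 37 of 4992 probes were called, a background of 0.741%. The exact sign-flip test gave p = 0.0625. With readings under the detection limit of an array raised to that limit, the mean was 0.73. The call turned on 1 animal, since without animal 20 the mean was 1.64 and limma's adjusted p was 0.00897. Calls over all probes also rose without that animal, from 37 to 67, so the shift was not particular to NFKBIA. Within slides the change was 2.12 in 1 animal, 1.96 over 2 animals and 0.23 over the 2 animals that include animal 20. That animal's MPLA value was a signal of 7.55, under the 13.6 of the dimmest probe above background on its array.

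Between the agonists the NFKBIA level was higher with MPLA in 5 of 6 animals, by 0.48 to 1.70, and in animal 20 it was -3.52. The mean difference of 0.31 ± 1.94 (SD, n = 6) had a 95% confidence interval of -1.07 to 1.69, which includes 0, and a limma adjusted p of 0.913. Without animal 20 it was 1.07, with a limma adjusted p of 0.0812. Within slides it was 1.55 in 1 animal and 1.39 over 2, and -1.49 on the slide of animal 20, so the direction did not hold in every slide. In this comparison 1 of 4992 probes was called, a background of 0.0200%.

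Because both genes were read in the same blood, their changes could be set against each other within each animal. With LPS the change of NFKBIZ exceeded that of NFKBIA by 1.59 ± 1.16 (SD, n = 6), in 5 of 6 animals, with animal 20 as the exception at -0.46. The exact sign-flip test gave p = 0.0625. With MPLA the difference was 0.46 ± 1.34 (SD, n = 6), positive in 3 of 6 animals, with p = 0.62 by the exact test. That mean rested on animal 20, at 3.01, and was -0.050 without it. It was 1.06 (exact p = 0.094) with readings under the detection limit raised to it. A difference between the changes of the 2 genes was thus not shown for either agonist.

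The other genes of the pathway were described from a list of 89 genes in 5 roles, of which the array named 25 and the stricter filter left 15 for testing, NFKBIZ among them. With LPS 10 of these 15 were called higher and 0 lower, beside 0.898% of all tested probes called, and with MPLA 9 were called higher and 0 lower, beside 0.995%. The list was chosen with earlier results of these data known, so this contrast is a description and not a test. IL1A, IL6 and CSF2 had no PBS array above background and so passed the filter only through the agonist arrays. Among the other 12 genes, 7 were called higher with LPS and 6 with MPLA. When all 25 named genes were tested without a filter, 9 and 8 were called higher. Between the agonists 0 were called. The median change of the 15 was 2.53 with LPS and 1.77 with MPLA, beside -0.01 and -0.09 over all tested probes. With IL1A, IL6 and CSF2 set at their lower bounds, these medians became 2.35 and 1.76. Over all 25 named genes, most of the added ones at or near background, the medians were 1.02 and 0.55. Leaving out each animal in turn gave 9 to 11 genes called higher with LPS and 9 or 10 with MPLA.

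The pathway's own machinery was thinly covered. Of the 6 IkB family genes only NFKBIZ and NFKBIA were named, and of the 5 subunit genes that encode NF-kappaB itself none was. Of the 26 genes that carry the signal from the receptor, 4 were named and 2 tested. IRAK4, a kinase next to the receptor, changed by 0.05 with either agonist (its second probe, above background on 11 of 18 arrays, by 0.42 and 0.60), and CD14, a co-receptor for LPS, by -0.32 and -0.48, none of them called. TLR4 was above background on 3 of 18 arrays and its adaptor MYD88 on 0 of 18. Of the 16 other feedback inhibitors 2 were named. ZFP36, which destabilises cytokine mRNA, changed by -0.07 with LPS and -0.09 with MPLA. PELI1, a ubiquitin ligase of the pathway, changed by 0.52 ± 0.37 with LPS and 0.27 ± 0.31 with MPLA (SD, n = 6). Neither was called.

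All other calls fell among the target genes, of which 17 of 36 were named and 10 tested. TNF, an early cytokine, rose by 1.42 ± 0.35 with LPS and 1.14 ± 0.33 with MPLA (SD, n = 6), with limma adjusted p of 0.00208 and 0.00694. CXCL1, a neutrophil-attracting chemokine, rose by 2.59 ± 0.64 and 1.77 ± 0.27, close to the changes of NFKBIZ. Its second probe gave 2.38 and 1.59. IL1B, a fever-inducing cytokine, rose by 2.53 ± 0.99 and 2.62 ± 1.17, and SOD2, the mitochondrial superoxide dismutase, by 2.35 ± 0.51 and 2.16 ± 0.71. IL10, an anti-inflammatory cytokine, rose by 3.08 ± 0.61 and 3.60 ± 0.83. PTGS2, the inducible cyclooxygenase, rose by 2.63 ± 0.97 with LPS, while its change of 1.76 ± 1.09 with MPLA missed the call (limma adjusted p = 0.0516). Its second probe, above background on 2 of 18 arrays, gave 1.39 and 0.81. CXCL8, a bright chemokine probe under every treatment, changed by 1.12 and 0.55 and was not called.

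The remaining tested targets were not above background on any PBS array, so their changes are bounds. They passed the filters only through agonist arrays. The limma adjusted p given for them belong to fits on unmeasured PBS readings, not to the bounds, and add no support to the bounds. IL6, whose induction depends on IkB-zeta, was at least 5.45-fold higher with LPS and at least 3.17-fold higher with MPLA (limma adjusted p of 0.000538 and 0.00183). IL1A was higher by at least 6.42-fold with LPS and by at least 7.89-fold with MPLA (limma adjusted p of 0.000128 and 5.83e-05), and its second probe gave fitted changes of 3.16 and 3.61. CSF2, a growth factor for myeloid cells, was at least 2.35-fold higher with LPS, where it was measured on 4 of 6 arrays, and at least 3.73-fold higher with MPLA (limma adjusted p of 0.0452 and 0.00417). With the looser filter its call with LPS was lost (limma adjusted p of 0.0802). PTX3, a secreted pattern-recognition protein, was at least 1.78-fold higher with LPS and at least 1.37-fold higher with MPLA. It was measured on 4 of 6 LPS and 5 of 6 MPLA arrays. PTX3 was tested only with the looser filter and was called with LPS (limma adjusted p of 0.00909) but not with MPLA (0.319).

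**Figure D3:**
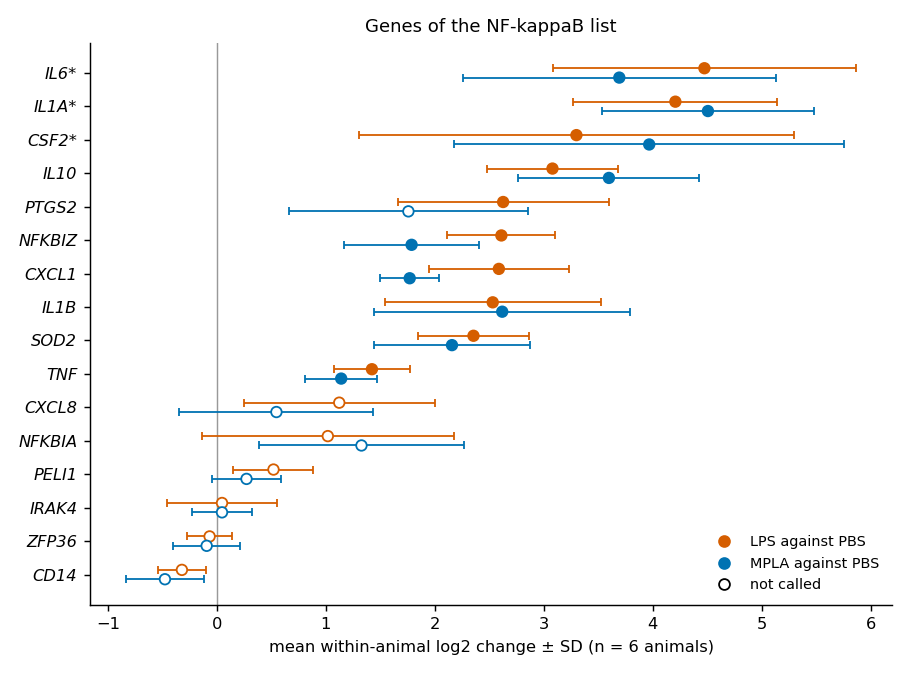
Mean within-animal log2 change ± SD (n = 6 animals) of the 16 genes of the NF-kappaB list shown, the 15 tested with the stricter filter and NFKBIA, for LPS (orange) and MPLA (blue) against PBS, with filled points called in limma and open points not called. An asterisk marks IL6, IL1A and CSF2, which no PBS array measured and whose plotted values are fitted changes rather than bounds, and NFKBIZ lies among the called targets at 2.61 and 1.79 while NFKBIA lies among genes not called at 1.02 and 1.33.

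The probes whose pattern was most like each gene were found by Pearson's r over the 18 arrays, after the mean of each animal's 3 arrays had been taken off. For NFKBIZ the 3 closest of 4121 probes had no gene name (A_70_P065446 at 0.96, A_70_P012436 at 0.95 and A_70_P005636 at 0.95). The 5 closest named genes were IL6 at 0.95, LOC101104661 at 0.95, CXCL1 at 0.94 (through its second probe), PTGS2 at 0.94 and TNF at 0.94, where the median over all probes was 0.07. IL6, CXCL1, PTGS2 and TNF are targets on the pathway list, as are IL1A and PTX3 among the neighbours of NFKBIA below. NFKBIA correlated with NFKBIZ at 0.42, which was rank 293 from the side of NFKBIZ and rank 974 from the side of NFKBIA. For NFKBIA the closest of 4991 probes also had no name (A_70_P018076 at 0.89), and the 5 closest named genes were TTC27 at 0.83, NCOA5 at 0.82, IL1A at 0.82 (through its second probe), CXCL16 at 0.81 and PTX3 at 0.79, beside a median of -0.23. Without animal 20 the values for the named neighbours of NFKBIZ were 0.92 to 0.97 and those of NFKBIA 0.68 to 0.87. These correlations describe arrays that share animals, treatments and array brightness, and NFKBIA, IL6, IL1A and PTX3 were below the detection limit on some of them.

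**Figure D4:**
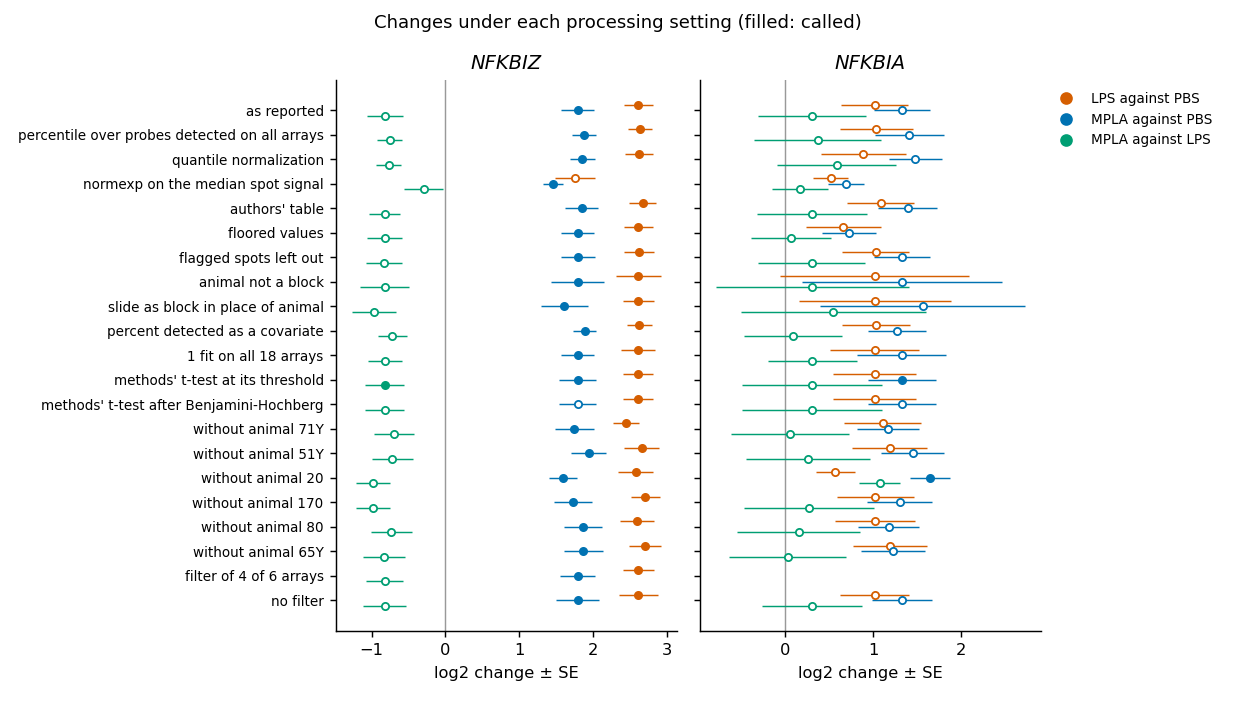
Log2 change ± SE of NFKBIZ (left) and NFKBIA (right) under each processing setting, with LPS in orange and MPLA in blue, each against PBS, and MPLA against LPS in green, with filled points called under that setting. NFKBIZ stays above 0 for both agonists throughout, at 1.75 to 2.71 with LPS and 1.45 to 1.94 with MPLA, and NFKBIA with MPLA is called without animal 20 at 1.64.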

How the data were processed

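Whole blood RNA of 6 sheep was hybridised to 18 arrays (1-colour Agilent sheep design). The authors deposited scanner intensity values from Agilent Feature Extraction 11.5.1.1 (version per the file headers), background-subtracted by that software, and a table of ratios of each signal to an array number. That number was near the array's 75th percentile, except on the LPS array of animal 170 and the MPLA array of animal 80, where it was 0.79 of the percentile. Signals of repeated spots were averaged per probe, log2-transformed and centred on each array's 75th percentile, taken over all probes but controls. No spot was saturated. The number of arrays limits the precision.

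Each pair of treatments was fitted on its 12 arrays with limma 3.58.1 in R 4.3.3, with animal as a fixed block, as the sample titles name the animals. Across treatments, deviations of arrays of the same animal correlated at 0.13 to 0.89 (mean 0.59, 18 pairs). Benjamini-Hochberg adjustment ran over all tested probes, called under 0.05. Tested probes were well above background on 6 of 6 arrays of a treatment (4122 probes) or, for NFKBIA, on at least 4 of 6 (4992 probes). Both filters follow the study. Single values were tested with the exact sign-flip test over 64 sign patterns.

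Of 2200 probes with a RefSeq accession, 1265 were named through RefSeq's genes of ARS-UI_Ramb_v3.0, used for names only, and 7 more, the NFKBIZ probe among them, through the study's own probe list. A gene with several probes is given by the probe of highest mean signal. The genes named are the members, tested genes of the pathway list, the 5 probes and the 5 named genes most like each member, and the cell markers. Members and lists were chosen with earlier results of these data known. Where no PBS array measured a probe, "at least" sets the treated mean against a PBS mean in which each array gives its lowest signal above background, or the probe's own where that is higher. Alternatives covered scaling, background correction, the authors' table, low values, filters, block, slide, fit, covariate, outlier spots, the test and each animal left out. Correction by normexp (offset 50), planned on the mean spot signal, was run on the median spot signal. Scripts for tables and plots used Python 3.11.15 with pandas 2.3.3, and the models were tested on simulated data. The human arm was not analysed here.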

Additional observations from a re-analysis of the deposited data

Results flagged for a closer look

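Among 42 groups of 6 animals examined for a sample far from the others (chance sets 1 in about 20 such groups apart), 4 values stood apart, and 3 of them were in animal 20, 2 of the NFKBIA probe and 1 of the difference between the NFKBIZ and NFKBIA changes. The NFKBIA change of animal 20 with LPS against PBS was 3.26, where the nearest other animal was at 1.00 and the lowest at 0.15. Its NFKBIA difference between MPLA and LPS was -3.52, where the nearest was 0.48 and the highest 1.70. With MPLA its NFKBIZ change exceeded its NFKBIA change by 3.01, where the nearest animal was at 0.65 and the lowest at -0.66. The NFKBIA signals of this animal were 20.0 under PBS, 213.8 under LPS and 7.55 under MPLA, the last not above background. The PBS signal lay just over the detection limit of its array, 17.3. The 3 values of animal 20 share these NFKBIA arrays, so they do not count separately against the chance share. For PELI1 with LPS against PBS, animal 65Y was lowest at -0.18, where the nearest animal was at 0.49 and the highest at 0.83.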

How the results depend on the processing

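NFKBIZ kept its direction for both agonists under all 20 alternatives each and was called in 19 of 20 for either. With LPS it was not called after normexp (1.75, limma adjusted p = 0.222), under which 2 probes in all were called, and with MPLA it was not called by the methods' t-test after Benjamini-Hochberg (1.79, adjusted p = 0.115). MPLA against LPS passed only the methods' t-test at its threshold (-0.82), and ran from -0.98 to -0.30 over the alternatives. For NFKBIA all 19 alternatives left LPS uncalled (0.52 to 1.19), and MPLA (0.69 after normexp and 0.73 with floored values to 1.64) passed in 2, the methods' t-test at its threshold (1.33) and without animal 20 (1.17 to 1.64 over animals left out). The filter of 6 of 6 arrays gave no NFKBIA value. The excess of the NFKBIZ over the NFKBIA change with LPS passed the exact test only after normexp (1.23, p = 0.031). With MPLA it turned from 0.46 to -0.050 without animal 20 and otherwise reached 0.68 with an animal left out, 0.76 after normexp and 1.06 with floored values. The cause of these shifts was not tested. Without the replicate block NFKBIZ was still called with LPS (2.61, limma adjusted p = 0.000177) and MPLA (1.79, 0.0348). Calls over all probes moved by more than 1.5 times in several settings. For LPS (37) they were 2 after normexp, 61 with the percent detected as a covariate, and 71 and 10 by the methods' t-test at its threshold and after adjustment. For MPLA (41) they were 26 with slide as the block, 92 and 14 by the t-test, 284 without animal 20 and 24 without a filter. For MPLA against LPS (2) they ran from 0 to 52. With the looser filter they ran from 2 to 87 (LPS, 32), 14 to 124 (MPLA, 37) and 0 to 75 (MPLA against LPS, 1). NFKBIA was above background on all 3 arrays of animals 71Y and 51Y only, so its changes in the other 4 animals rest in part on readings without a dependable level.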
